A study of Mus musculus with 44 samples.

Results

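The 1000 widest H3K27ac domains of the mouse nucleus accumbens (NAC) are described here. They were chosen by width alone, the end minus the start of a peak in the NAC table, as the 1000 widest of 128441 autosomal peaks, with ties ordered by chromosome and position. Width and level in NAC are therefore given as descriptions, without a test. H3K27ac is acetylation of lysine 27 of histone H3, and it was measured by chromatin immunoprecipitation and sequencing. All animals were adult mice of the strain C57BL/6. NAC had 2 libraries from wild-type (WT) mice and 2 from Polg(D181A) mice, which carry a mutant mitochondrial DNA polymerase and stand as a model of bipolar disorder in the title of the study. The same 2 genotypes, with 2 libraries each, were measured in caudate putamen (CP), cortex (COR) and the paraventricular thalamic nucleus (PVT), which gives 16 H3K27ac libraries. Nuclei came from dissected, snap-frozen regions and were stained for NeuN, a neuronal nuclear protein, and sorted before the assay. As background, the mutant Polg transgene of this mouse line is driven by the promoter of Camk2a, a gene of excitatory and striatal projection neurons, so reads of that promoter from the transgene and from the native gene cannot be told apart. Separate animals behind the 2 libraries of a group are not stated in the labels, so every p-value below measures the spread between these libraries, which may be technical.

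H3K27ac marks active promoters and enhancers. Most acetylated stretches are short, and the widest ones of a cell, often called broad domains, stretch enhancers or super-enhancers, are known to lie at genes that define the identity of that cell, among them its own transcription factors. The principal neurons of the accumbens and of the caudate putamen are GABAergic spiny projection neurons, which receive dopamine and carry a dense set of dopamine, cAMP and G protein signalling proteins. Cortex and thalamus are built mainly of glutamatergic projection neurons.

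The promoters of Drd1, Rasd2, Scn4b and Gabra2, all inside wide domains, are given as examples of gene starts, which could be placed in 152 of the 1000 domains. Each belongs to a gene with a known role in neurons of the striatum or in GABA signalling, each was among the promoters that could be read with no other gene in the window, and they lie in domains that differ in how much of them is also a peak in the other regions. The 200 bases before the gene's start are given 5′ to 3′ on the gene's strand from RefSeq (GRCm38.p6, the same assembly as mm10), and capitals mark CpG dinucleotides. Drd1, the D1 dopamine receptor, has chr13:54055659-54055858 (minus strand). Rasd2, a striatal small GTPase also known as Rhes, has chr8:75213744-75213943 (plus strand). Scn4b, a sodium channel beta subunit, has chr9:45138424-45138623 (plus strand). Gabra2, a GABA-A receptor subunit, has chr5:71095850-71096049 (minus strand).
Drd1: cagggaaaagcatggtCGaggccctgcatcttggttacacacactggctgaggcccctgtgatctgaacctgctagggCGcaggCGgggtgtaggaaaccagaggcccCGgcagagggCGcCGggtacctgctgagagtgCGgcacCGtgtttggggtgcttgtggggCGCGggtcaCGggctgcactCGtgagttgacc
Rasd2: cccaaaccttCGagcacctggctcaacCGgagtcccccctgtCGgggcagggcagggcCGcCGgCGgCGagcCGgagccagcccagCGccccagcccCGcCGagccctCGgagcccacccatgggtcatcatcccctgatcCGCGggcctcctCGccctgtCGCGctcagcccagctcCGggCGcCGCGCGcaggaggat
Scn4b: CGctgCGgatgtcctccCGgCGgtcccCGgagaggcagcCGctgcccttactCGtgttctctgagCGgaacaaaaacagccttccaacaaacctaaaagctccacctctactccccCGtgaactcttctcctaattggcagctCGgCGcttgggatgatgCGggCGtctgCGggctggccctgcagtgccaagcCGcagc
Gabra2: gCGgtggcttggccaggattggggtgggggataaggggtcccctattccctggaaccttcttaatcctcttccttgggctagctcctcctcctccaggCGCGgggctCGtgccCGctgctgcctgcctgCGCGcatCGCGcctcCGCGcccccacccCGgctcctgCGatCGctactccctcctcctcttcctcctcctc
These windows hold 12 CpG in Drd1, 22 in Rasd2, 15 in Scn4b and 14 in Gabra2. A gene start with a sequence in the table lay in a wide domain for 198 starts of 154 genes. Their windows had a median of 10 CpG and 62% G plus C, against 15 CpG and 63.5% at the 6973 starts in any autosomal NAC peak and 9 CpG and 57% at all 20084 starts. The motifs below were searched on both strands. GGGCGG, the core of the GC box, was in 49.5% of the windows at wide domains, 58.7% of those in any NAC peak and 41.5% of all. TGACG, the core of the cAMP response element, was in 17.2%, 24.4% and 18.2%, and the full element TGACGTCA, which contains it, in 2.53%, 2.78% and 1.90%. TATAAA was in 8.08%, 4.12% and 9.44%, the E-box CAGCTG in 12.1%, 10.0% and 10.1%, and the AP-1 form TGANTCA in 3.54%, 2.90% and 4.95%. The windows printed above held none of these motifs. Among other list genes whose windows could be read, Rgs7bp (4 CpG) held TGACG and Sox11 (9 CpG) held GGGCGG. These shares are descriptions, and a match is not a site.

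MicroRNA hairpins lay in 8 wide domains, 9 of the 133 hairpins in any autosomal NAC peak. They encode 17 mature sequences with 17 different seeds (bases 2 to 8, in capitals below), so no 2 of them share a seed. The brain microRNA miR-137 lies in the domain of rank 442, chr3:118429671-118436889, which touches no protein-coding gene. The hairpin of miR-129-2 lies in the domain of rank 523, chr2:94239011-94245903, with the lncRNA Mir670hg, and that of miR-346 lies in the Grid1 domain of rank 280.
miR-137-3p: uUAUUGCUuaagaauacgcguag
miR-129-5p: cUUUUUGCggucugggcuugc
miR-129-2-3p: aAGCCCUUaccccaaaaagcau
miR-346-5p: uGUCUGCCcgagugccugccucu

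The domains ran from 28992 bases down to 5739 bases, with a median of 6972.5 (quartiles 6231.75 and 8600.25), where the median of all autosomal NAC peaks was 503 bases. They covered 7.90 Mb, 6.78% of the length called in NAC. The cut was not a break in the distribution. Just inside it lay a domain near Rsl24d1 (5748 bases), one in Cradd (5744) and one in Polr1a (5739), and just outside it lay one near Zbtb20 (5737), one in Pon1 (5734) and one near Usp25 (5729). The widths of the widest peaks differed between the 4 tables. The peak of rank 1000 was 3949 bases in CP, 6624 in COR and 9883 in PVT, so the widest CP peaks were shorter than those of NAC and the widest PVT peaks longer.

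**Figure D1:**
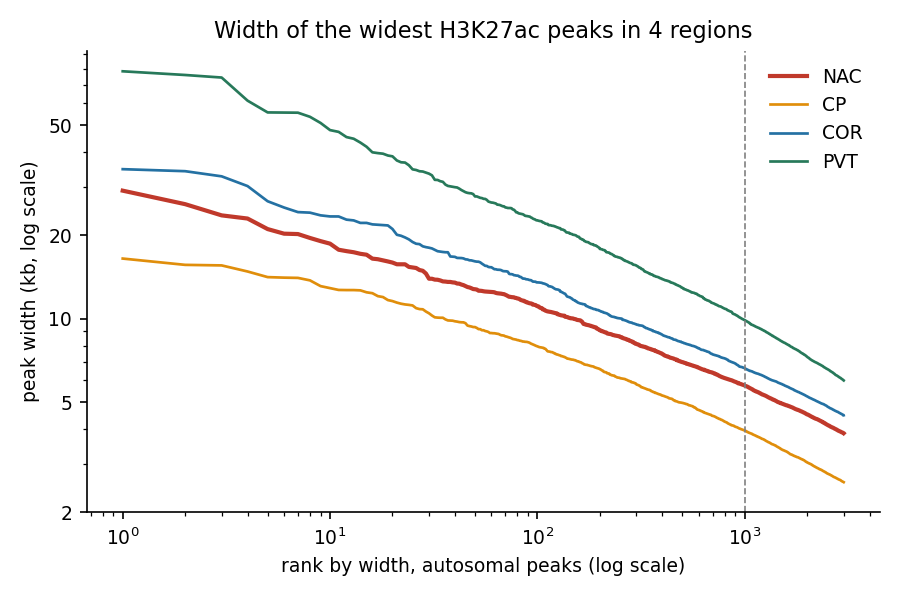
Peak width in kb (vertical, log scale) against the rank of the peak by width (horizontal, log scale) for the autosomal H3K27ac peaks of NAC, CP, COR and PVT, with a dashed line at rank 1000. At that rank NAC stands at 5739 bases, between CP at 3949 and COR at 6624, with PVT at 9883.

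Depth was uneven, and it sets how firmly single domains can be read. The NAC libraries held 80516545 (WT 1), 6415127 (WT 2), 19660428 (Polg 1) and 14838045 (Polg 2) counts in peaks, and 69.6% of all NAC peaks had no count in WT 2 against 19.9% to 25.2% in the other libraries. Of the wide domains, 11 had no count in WT 2, where 3 counts are worth 0.468 CPM (counts per 1000000 counts of the library), and none was at 0 in the other 3 libraries. In the NAC libraries, 42 of 44 striatal projection neuron genes and 16 of 17 general neuronal genes had a peak, and their summed levels were 1.70 to 2.27 and 1.73 to 2.23 CPM per kb of gene. The same sums were 0.64 to 1.23 for 12 astrocyte genes (9 with a peak), 0.66 to 0.83 for 13 oligodendrocyte lineage genes (7 with a peak), 0.54 to 0.78 for 21 cortical and 0.28 to 0.40 for 18 thalamic neuron genes, and 0.09 to 0.16 for 14 microglia and vascular genes. The part of non-neuronal nuclei in any domain was not tested, and fewer cells of a type and less signal per cell cannot be told apart.

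Acetylation inside the wide domains was measured as CPM per kb of domain, the CPM of a peak divided by its length. The median domain had 11.3 CPM per kb in WT 1, 10.2 in WT 2, 7.85 in Polg 1 and 8.89 in Polg 2. The 1000 peaks next in width had 10.4, 8.53, 7.04 and 8.07, and all autosomal peaks had 5.03, 0, 7.66 and 6.42. The Spearman rho between width and mean level was 0.14 over the 1000 domains, which share 4 libraries. Single domains differed widely, from 1.63 to 32.7 in WT 1, from 0 to 56.0 in WT 2, from 1.14 to 42.8 in Polg 1 and from 2.22 to 44.8 in Polg 2. The rank order of the domains was shared in part between libraries, with rho from 0.27 (WT 2 and Polg 2) to 0.69 (WT 1 and Polg 2). After the domain at the start of Camk2a, described below, the highest mean level was at Mir124-2hg, a lncRNA host of the neuronal microRNA miR-124 (rank 17, WT 32.7 and 29.4, Polg 25.4 and 25.6 CPM per kb). Next came Dmtn, an actin-bundling protein (rank 343, WT 24.2 and 36.3, Polg 14.5 and 23.0), Cracdl (rank 984, WT 16.03 and 56.0, Polg 15.1 and 9.43), a domain near Osbpl8 (rank 252, WT 19.4 and 41.8, Polg 16.6 and 11.5) and Gabra2 (rank 947, WT 22.5 and 29.5, Polg 19.4 and 15.5). At Cracdl and near Osbpl8 the high mean rests on WT 2, the shallowest library. The lowest mean levels were in Tafa5 (rank 224), Cap1 (rank 674), near D3Ertd751e (rank 907), near Gm11780 (rank 942) and in Kcnq5 (rank 738), where no library was above 7.82 CPM per kb.

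**Figure D2:**
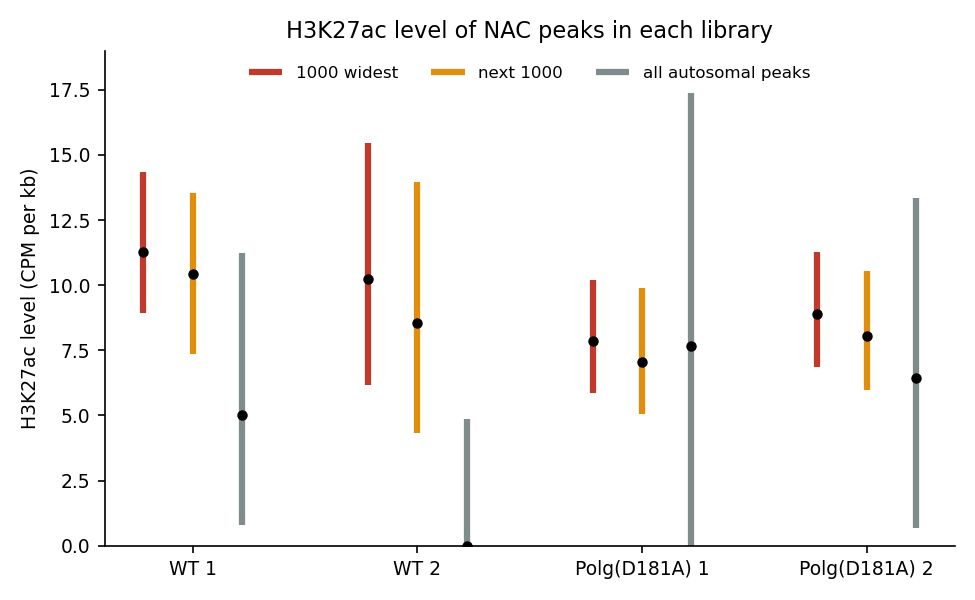
H3K27ac level in CPM per kb (vertical) in each NAC library for the 1000 widest peaks, the next 1000 and all autosomal peaks; dots are medians and bars span the quartiles over peaks. The widest peaks have medians of 11.3, 10.2, 7.85 and 8.89, and the median of all peaks in WT 2 is 0.

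The domains were richer in genes and gene starts than the average peak. A protein-coding gene overlapped 685 of them (68.5%, against 57.9% of all autosomal NAC peaks), and 152 held a gene start that could be placed (15.2% against 4.44%). Per length the order was the other way, with 1.96 gene starts per 100 kb of wide domain and 5.25 per 100 kb of all peaks. Most wide domains were therefore stretches inside genes without a placed start (533) or outside protein-coding genes (315, of which 104 touched a lncRNA). Starts could be placed for 16456 of the 20661 genes, and not for Camk2a and Dlx5 among others. The 152 is thus a lower bound and the 533 an upper bound. The domains outside genes lay a median of 50.5 kb from the nearest protein-coding gene, and 108 lay over 100 kb away. In all, 594 of 20661 autosomal protein-coding genes (2.87%) were touched, and these genes were long, with a median of 93.3 kb against 17.5 kb for all. Of the wide domains, 329 lay within 50 kb of another, and 39 clusters of such neighbours held at least 3. The same was not counted for other peaks, so these counts are descriptions. The largest clusters were the 9 domains in Celf4, an RNA-binding splicing factor of neurons, which covered 111.7 kb of a gene of 277 kb. Clusters of 7 lay in Syt1, the calcium sensor of synaptic vesicle release (55.4 kb of 513 kb), and in Klhl29, which held 9 domains in all (70.9 kb of 298 kb). Pde10a held 6 domains and Dnmt3a 5.

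The widest domain of all lay in Myo18a, an unconventional myosin, at chr11:77838073-77867065. Its levels were 10.8 and 14.6 CPM per kb in WT and 7.18 and 9.77 in Polg(D181A) libraries. The next lay at the start of Bcl11a, a zinc finger transcription factor of cortical and striatal neurons (25915 bases, chr11:24072512-24098427, WT 16.9 and 8.23, Polg 7.92 and 9.87). The domain of rank 3 lay inside Celf4 (23609 bases), and that of rank 4 in a gene desert 302 kb from Prkd1 (22995 bases, chr12:50951696-50974691). Rank 5 covered Dlx6 with its antisense lncRNAs Dlx6os1 and Dlx6os2, and rank 9 lay in Bcl11b, the factor also called Ctip2 that striatal projection neurons require. Others among the 20 widest lay at the start of Ndrg4 (rank 6), at Dnmt3a, a de novo DNA methyltransferase (7), over the lncRNA C130071C03Rik 47.7 kb from Mef2c (8), over a lncRNA 44.9 kb from Tbx19 (10), in Ndst1 (11), in Kctd1 (12), 22.4 kb from Ppp2r2a (13), at Irf2bpl (14), over Nckap1l and the start of Pde1b (15), at Zmynd8 (16), over Mir124-2hg (17), in Klhl29 (18), in Ttc7 (19) and again in Celf4 (20). Gene models overlap there, so a domain over 2 genes is assigned to neither alone.

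Genes of striatal projection neurons were often among those covered. Of 44 genes listed for these cells, 16 (36.4%) carried at least 1 wide domain, against 2.87% of all protein-coding genes (the part of gene length was not tested, with a median of 33.4 kb in the list and 17.5 kb over all genes). Among transcription factors they were Bcl11b, Meis2, Foxp1, Mn1 and Rarb. Meis2 had a domain at its start (13528 bases, chr2:116063695-116077223) with 7.17 and 10.2 CPM per kb in WT and 4.11 and 7.68 in Polg(D181A) libraries. Among enzymes of cyclic nucleotide signalling they were Pde1b, Pde7b and Pde10a, which degrade cyclic nucleotides, and Adcy5, the main adenylyl cyclase of the striatum. Adcy5 had 3 domains, the widest of 15726 bases (chr16:35225181-35240907, WT 13.7 and 16.7, Polg 10.8 and 8.71). Pde10a had 6, of which the widest held a gene start (9892 bases, chr17:8799573-8809465, WT 8.83 and 14.9, Polg 6.54 and 5.61). Ppp1r1b, which encodes DARPP-32, the phosphatase inhibitor downstream of dopamine, lay under a domain of 12529 bases (chr11:98341377-98353906, WT 9.73 and 20.96, Polg 10.5 and 6.23). Both WT libraries lay above both Polg libraries in these widest domains of Adcy5 and Pde10a, as they did in 38.7% of all wide domains and 10.5% of all autosomal NAC peaks. The same order held in the Adcy5 domain of rank 127 and the Meis2 domain of rank 709. In the Pde10a domain of rank 855 the order was the other way, with WT at 4.88 and 0.804 and Polg at 4.91 and 6.74. Both Polg libraries lay above both WT libraries in 4.8% of all wide domains and 22.1% of all autosomal NAC peaks. The genotypes overlapped in the Pde10a domains of ranks 247, 424, 758 and 958. They also overlapped in the Adcy5 domain of rank 767, at the start of Meis2 and at Ppp1r1b. None of these Adcy5, Pde10a, Meis2 and Ppp1r1b domains passed the genotype test described below. Rgs9, which shortens G protein signals in the striatum, had 3 domains, and Drd1 had 1 over the whole gene (8576 bases, chr13:54049029-54057605, WT 10.4 and 7.07, Polg 3.57 and 9.01). Arpp21, Rasd2, Scn4b and Ano3 had 1 each. Of 9 ventral striatum genes only Drd3, the D3 dopamine receptor, had one (rank 449), and none of the 15 genes listed for striatal interneurons did.

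Among 9 genes of GABA neuron identity, 4 were covered: the transcription factor genes Dlx6 and Dlx5, the glutamate decarboxylase gene Gad1 and the vesicular GABA transporter gene Slc32a1. Of all protein-coding genes 2.87% were covered, with a median length of 17.5 kb against 8.49 kb in this list. The Dlx6 domain spanned 21067 bases (chr6:6846215-6867282, WT 15.9 and 11.8, Polg 7.82 and 10.1 CPM per kb), and the Dlx5 domain 13750 bases right beside it (chr6:6868341-6882091, WT 18.6 and 12.6, Polg 8.31 and 16.3). Gad1 had 8466 bases at its start (WT 9.84 and 12.8, Polg 9.20 and 7.23) and Slc32a1 had 7494 (WT 11.98 and 13.8, Polg 7.64 and 10.1). At Dlx6, Gad1 and Slc32a1 both WT libraries lay above both Polg libraries, an order found in 38.7% of all wide domains, and none of these differences passed the test described below.

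General neuronal genes (median length 96.7 kb) had wide domains in 6 of 17 cases: Celf4, Syt1, Camk2a, Camk2b, Myt1l and Rbfox3, the gene of NeuN. Genes listed for cortical projection neurons included Bcl11a and Mef2c, which striatal neurons are known to express too. The Mef2c domain at the gene's start (rank 144, chr13:83516614-83526660) had 16.2 and 8.47 CPM per kb in WT and 12.2 and 10.9 in Polg(D181A) libraries, so that the genotypes overlapped. The general neuronal count and those of the next lists stand against 2.87% of all protein-coding genes, whose median length was 17.5 kb. The part of gene length in them was not tested. Potassium channel genes (median length 169 kb) were covered in 12 of 36, led by Kcnj4, an inward rectifier of spiny neurons (rank 276), Kcnq3 (279), Kcnip4 (345) and Kcnk2 (403). Postsynaptic scaffold and kinase genes (median length 106.4 kb) were covered in 7 of 29, led by Phactr1 (92), Baiap2 (180), Psd3 (218) and Dlgap4 (284). Further lists had 8 of 48 transcription and chromatin regulators (Mef2d, Npas2, Klf16 and Hivep2 with the widest), 5 of 32 genes of cAMP and G protein signalling (Rgs7bp, Pde8b, Gnb5 and Gng7), 5 of 34 glutamate and GABA receptors (Gabrb1, Grik2 and Grm7 among them, median length of the list 218 kb), 3 of 28 synaptic vesicle genes (Erc2, Cplx2 and Rims3) and 2 of 24 sodium and calcium channels (Cacnb1 and Cacna2d3). Of 25 immediate early genes, which neurons switch on with activity, Arc (51), Npas4 (325), Per1 (488) and Jun (774) had one. Glial lists had Gli3 and Slc4a4 of 12 astrocyte genes and Mbp of 13 oligodendrocyte genes. No wide domain touched any of 18 thalamic neuron genes, 14 microglia and vascular genes, 26 cytosolic ribosomal protein genes, 31 nuclear genes of oxidative phosphorylation or 19 genes listed as silent in brain. Ribosomal and oxidative phosphorylation genes are short, with list medians of 3.51 and 9.10 kb.

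Most wide NAC domains touched a peak of CP, the neighbouring part of the striatum. At least 1 base was shared with a CP peak in 973 domains (97.3%), with a COR peak in 886 (88.6%) and with a PVT peak in 792 (79.2%). The shares of all autosomal NAC peaks were 23.6%, 28.2% and 25.7%, and any overlap grows with width by construction. By length, 49.3% of the bases of wide domains lay in CP peaks, 47.3% in COR peaks and 40.0% in PVT peaks, against 20.99%, 28.1% and 25.9% for all NAC peaks. The 1000 peaks next in width stood between, at 39.2%, 40.9% and 36.6%. CP thus covered slightly more of these domains than COR, although its table called 68.8 Mb on the autosomes and that of COR 139.5 Mb. A total of 712 domains touched a peak in all 3 other regions, 229 in 2, 57 in 1 and 2 in none, namely one near Gm11780 (rank 942) and one in Chn2, the gene of beta-chimaerin (rank 966). The acetylated part was often broken up elsewhere: 654 domains held at least 2 CP peaks, 471 at least 2 COR peaks and 329 at least 2 PVT peaks. Where a peak lay, its median level was 15.9 CPM per kb in CP, 7.96 in COR and 8.40 in PVT, and these 3 tables were made separately, so the levels are not compared.

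**Figure D3:**
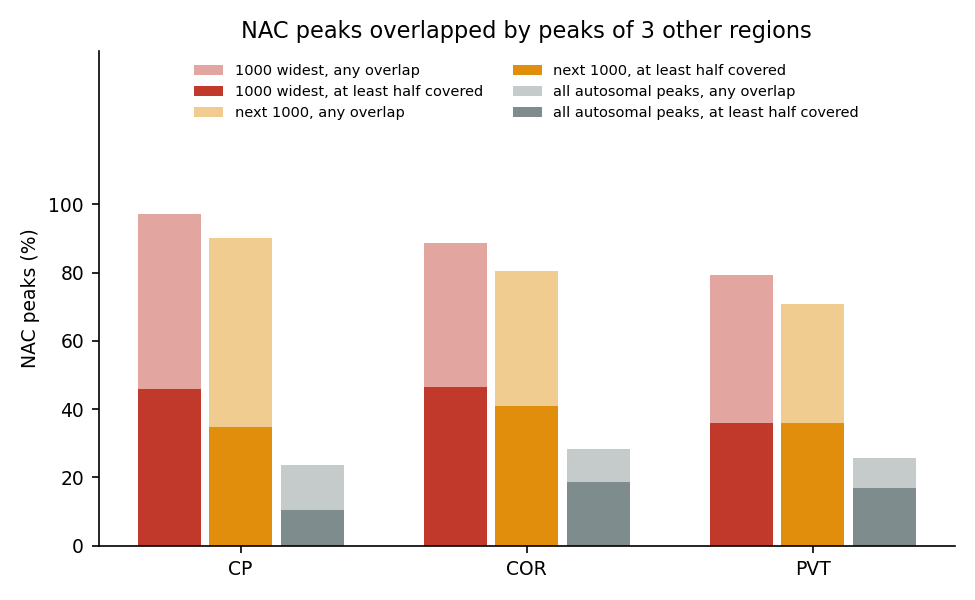
Percent of NAC peaks (vertical) that share any base (pale) or at least 50% of their length (solid) with a peak of CP, COR or PVT, for the widest 1000, the next 1000 and all autosomal NAC peaks. Among the widest, 97.3%, 88.6% and 79.2% share a base and 45.9%, 46.4% and 35.8% are covered over at least 50% of their length.

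Domains among the widest in NAC were also among the widest elsewhere in part. Of the 1000 NAC domains, 339 touched one of the 1000 widest CP peaks (35.6% of those CP peaks), 183 one of the widest COR peaks (17.8%) and 125 one of the widest PVT peaks (11.9%). A total of 221 did so in CP alone, 30 in all 3 regions and 526 in none. Domains wide in NAC and without any CP peak were few (27), led by one near Bpnt2 (rank 189), Pitpnm2 (241), Shld1 (261), Ctnnbl1 (316) and Zranb3 (317). The 114 without a COR peak were led by one near Zswim6 (rank 111, 96.6% covered in CP), one near Rcn1 (126), one 245 kb from Drd1 (139), Pde7b (143) and one near Spry2 (166). The 208 without a PVT peak included Dlx6 (rank 5), Mir124-2hg (17), Dlx5 (34) and Meis2 (39), a lncRNA and transcription factors of the forebrain.

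Coverage differed between the gene groups in these descriptions, and the differences were not tested. The 31 domains of striatal projection neuron genes had a median of 61.6% of their length in CP peaks, 15.1% in COR peaks and 8.11% in PVT peaks, against 46.9%, 44.4% and 29.7% for all 1000. Of these 31, 20 were covered over at least 50% in CP, 2 in COR and 8 in PVT, and 12 held no PVT peak. The Rgs9 domain of rank 203 was covered over 76.05% in CP, 17.8% in COR and 0% in PVT, and the Ppp1r1b domain over 74.7%, 26.1% and 10.2%. At the GABA genes the values were further apart. Gad1 was covered over 82.2% in CP, 4.10% in COR and 1.77% in PVT, Dlx5 over 85.5%, 24.4% and 0%, and Dlx6 over 72.0%, 10.2% and 0%, whereas Slc32a1 was covered over only 17.5% in CP. The 24 domains of general neuronal genes had medians of 51.6%, 67.0% and 93.7%, and the PVT value rests on the 9 Celf4 domains, of which 6 of the widest 7 lay wholly in PVT peaks. The 15 others had a PVT median of 43.8%, and 6 of the 7 Syt1 domains had only 4.56% to 43.8% of their length in PVT peaks. Those of immediate early genes had 58.1%, 91.4% and 73.6%. The widest Bcl11a domain had 74.96%, 93.2% and 34.2%, and the Mef2c domain 45.8%, 96.0% and 90.2%. Some domains of striatal projection neuron genes went against the medians of their list. Drd1 had 24.9% in CP, 28.0% in COR and 0% in PVT. COR was also above CP in the Foxp1 domain of rank 307 (25.2%, 35.05% and 100%) and the Meis2 domain of rank 709. PVT was above CP in that Foxp1 domain and the one of rank 836. It was so too in the Adcy5 domains of ranks 127 and 767 and the Bcl11b domain of rank 174. All other domains of this list had their largest share in CP.

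**Figure D4:**
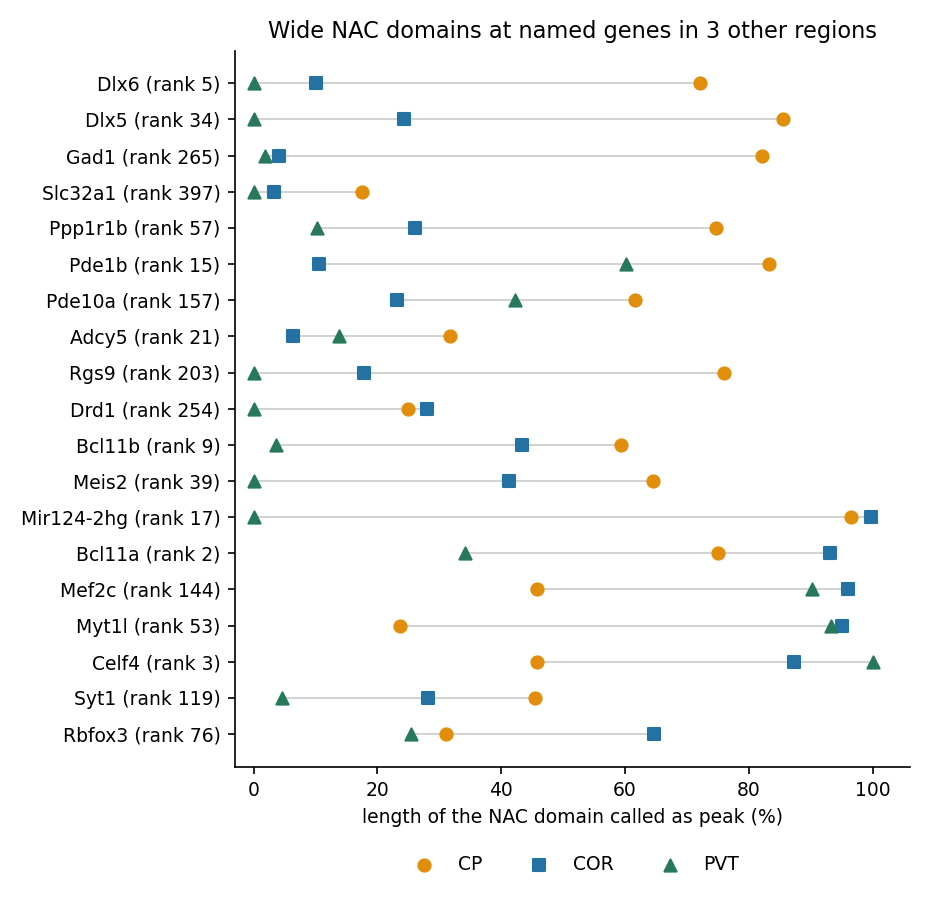
Percent of each domain's length called as a peak (horizontal) in CP, COR and PVT for 19 wide NAC domains, each named by its gene and ordered by gene group. Gad1, Dlx5 and Dlx6 stand at 82.2%, 85.5% and 72.0% in CP and at 4.10%, 24.4% and 10.2% in COR, and the widest Celf4 domain at 45.8%, 87.2% and 100% in CP, COR and PVT.

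Because NAC widths chose the domains, NAC itself was not compared with the other regions; CP was compared with COR and with PVT over the same NAC intervals, 4 libraries each, with counts of a peak shared out by the length that fell in the interval. In CP against COR, 865 wide domains could be tested, and no domain was called at an adjusted p under 0.05 (edgeR's quasi-likelihood test, Benjamini-Hochberg adjustment, smallest adjusted p 0.241), as was no interval of all 16215 tested (0%). At an unadjusted p under 0.05, 118 wide domains had higher counts in CP and 55 in COR, where all intervals gave 2.08% and 2.65%. DESeq2, run as the alternative, called 81 higher in CP and 28 higher in COR, against 2.47% and 4.71% of all intervals. The median log2 difference (CP minus COR) was 0.12 over the wide domains and -0.47 over all intervals. Peaks were called separately in each table, so a domain with less called length in a region also has fewer counts there. With the called length as an offset, 29 and 1 wide domains had an unadjusted p under 0.05, no domain or interval was called (0%), and the medians were 0.30 over the wide domains and -0.0038 over all intervals. At Dlx6, CP had 333, 109, 244 and 176 CPM (WT 1, WT 2, Polg 1, Polg 2) and COR had 8.76, 2.15, 9.79 and 10.3, so that the lowest CP library stood above every COR library. The log2 difference was 4.22 (SE 0.68, edgeR adjusted p 0.241), and 1.40 with the offset, with 15.2 kb called in CP and 2.14 kb in COR. At Gad1, CP had 140, 10.6, 116 and 102 CPM and COR 2.36, 8.29, 1.17 and 0, again without overlap, but with CP WT 2 close to the highest COR library. How many of all wide domains had CP and COR libraries without overlap was not counted. In the Adcy5 domain of rank 767, CP had 104, 99.6, 84.8 and 72.6 CPM and COR 5.49, 5.78, 4.71 and 2.02 (log2 difference 3.62, SE 0.63, edgeR adjusted p 0.290; 1.09 with the offset). Over the striatal projection neuron list, 26 of 27 tested domains had a log2 difference above 0, with a median of 2.81, 10 of them at an unadjusted p under 0.05 and none called. The median called length of these 27 was 4.99 kb in CP and 1.605 kb in COR, and with the offset 21 were above 0 with a median of 0.36, near the 0.30 of all wide domains. The general neuronal domains were split, 12 of 24 above 0 with a median of 0.09 (17 and 0.21 with the offset). On the other side, at Gabra2 the CP libraries had 8.36, 22.7, 6.42 and 13.5 CPM and the COR libraries 40.6, 49.4, 53.2 and 56.3 (log2 difference -2.84, SE 0.59, edgeR adjusted p 0.448; -0.65 with the offset), also without overlap.

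In CP against PVT, 773 wide domains could be tested, and the same edgeR test called 24 higher in CP and 1 higher in PVT; the background over all 14647 intervals was 0.184% and 0.0341%. The median log2 difference (CP minus PVT) was 0.28 over the wide domains and -0.60 over all intervals, and 217 and 73 domains had an unadjusted p under 0.05 (4.59% and 4.14% of all intervals). DESeq2 called 164 and 32, where it called 4.48% and 9.09% of all intervals. The called domain with the widest span was Bcl11a, with 336, 458, 349 and 330 CPM in CP and 54.4, 39.5, 61.4 and 68.3 in PVT (368 ± 60.6 against 55.9 ± 12.3, SD, n = 4, log2 difference 2.05, SE 0.22, edgeR adjusted p 0.0226). The domain 302 kb from Prkd1 was called as well (300.2 ± 103 CPM in CP, 9.05 ± 3.63 in PVT). Among called domains over a gene, the largest differences were at Chn1, which encodes alpha-chimaerin, a Rac regulator of dendrites (119 ± 68.0 CPM in CP against 1.77 ± 1.74 in PVT, log2 difference 6.06), Gnb5, the G protein beta subunit that partners Rgs9 (122 ± 12.3 against 3.77 ± 2.65, 4.42), Glp2r, the receptor of glucagon-like peptide 2 (97.5 ± 75.7 against 2.75 ± 1.14, 4.34), Ppm1f, a phosphatase of CaM kinases (141 ± 54.0 against 5.44 ± 2.49, 3.95), and Akap6, an anchor of protein kinase A (212 ± 33.04 against 11.1 ± 2.15, 3.58). In each of these the 4 CP libraries stood above the 4 PVT libraries. They did so in 24 of the 25 called domains, which were called on these same counts, and in 280 of the 773 tested wide domains (36.2%). The PVT libraries all stood above the CP libraries in 66 of the 773 (8.54%). Neither order was counted over all 14647 intervals. The 1 domain called higher in PVT lay over Cyfip2, of the WAVE actin complex, and Fndc9 (20.9 ± 8.02 against 82.2 ± 9.02 CPM, log2 difference -2.69, SE 0.40, edgeR adjusted p 0.0472). The length called as a peak differed beside the counts, with a median of 6.71 kb in CP and 0.948 kb in PVT over the 25 called domains. With that length as an offset, no wide domain was called, nor any interval (0%), and the log2 difference at Akap6 was -0.12. Without CP WT 2 the counts were 155 and 31, where 361 and 162 of all 14666 intervals were called. Without CP WT 1 they were 1 and 1 (1 and 2 of all 14649 intervals). They were 3 and 0 without CP Polg 1 (all intervals 3 and 0) and 1 and 0 without CP Polg 2 (1 and 0). Without PVT WT 1 they were 5 and 0 (5 and 0), and without PVT WT 2 they were 4 and 0 (4 and 0). Without PVT Polg 2 they were 8 and 0 (8 and 0), and without PVT Polg 1 they were 17 and 0 (18 and 1).

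The genotype comparison in NAC asks which of the wide domains differ in mice with the mutant polymerase. As a check of the labels, peaks over the Polg gene itself summed to 0.90 and 0 CPM per kb in the WT and 13.9 and 11.0 in the Polg(D181A) libraries of NAC, where transgene reads cannot be told apart. In CP these sums were 11.2 and 7.85 against 21.2 and 24.2, in PVT 2.04 and 3.26 against 8.92 and 10.2, and in COR, where the genotypes overlapped, 2.49 and 10.0 against 4.76 and 7.99. All 1000 wide domains were tested in NAC, 1 had higher counts in Polg(D181A) and none lower, against 0.00476% of all 105058 tested peaks. At an unadjusted p under 0.05 6 had higher and 9 lower counts in Polg(D181A), where all peaks gave 1.6%. The log2 difference was above 0 in 511 wide domains, where it was so in 70.4% of all peaks. This split turned with the setting. It was 7 higher and 104 lower with total counts only, where 3096 of all 105058 peaks passed in either direction. It was 1 and 130 with no filter (2232 of 132740) and 13 and 1 with the replicate block (226 of 105058). Leaving out 1 library leaves 1 in its group, so the median log2 difference (Polg minus WT) is given instead. It was 0.62 without WT 1 (all peaks 8.62), -0.89 without WT 2 (0.44), -0.33 without Polg 1 (0.34) and -0.76 without Polg 2 (0.28). Domains above 0 numbered 344 with total counts, 174 with no filter, 731 without WT 1, 30 without WT 2, 294 without Polg 1 and 113 without Polg 2. No direction over the wide domains is therefore read from either count. The share of all peaks above 0 was not counted in these settings. The median log2 difference (Polg minus WT) was 0.02 over the wide domains and 1.09 over all tested peaks, many of which had no count in WT 2. In CPM per kb, without scaling beyond library totals, both WT libraries stood above both Polg libraries in 387 domains (all peaks 10.5%) and below them in 48 (all peaks 22.1%). Wide domains held 9.45% and 9.18% of the counts of the WT libraries and 6.67% and 7.48% of those of the Polg libraries, so the groups did not overlap (9.31% ± 0.19 against 7.07% ± 0.57, SD, n = 2). The 2-sided exact permutation p of that difference was 0.333, the smallest that 2 against 2 libraries can give.

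The single domain called between genotypes lay at the start of Camk2a, the alpha subunit of CaM kinase II (rank 33, 13828 bases, chr18:60917781-60931609, the gene itself at chr18:60925307-60988152). It spans 7.53 kb before the gene and 6.30 kb inside it. Its level was 14.7 and 16.4 CPM per kb in the WT libraries and 42.8 and 44.8 in the Polg(D181A) libraries (15.6 ± 1.20 against 43.8 ± 1.46, SD, n = 2). The groups did not overlap, and in both Polg libraries this was the highest value of any wide domain. The log2 difference was 1.89 (SE 0.32, edgeR adjusted p 2.14e-04). The neighbouring wide domain deeper in the same gene, of rank 30 (chr18:60940530-60954477), had 9.18 and 10.3 in WT and 6.15 and 7.97 in Polg(D181A) libraries, with a log2 difference of -0.06 (SE 0.52, edgeR adjusted p 1.0). The call at the start of Camk2a was not kept by DESeq2 (adjusted p 0.0881, with no wide domain called where 3% of all peaks were), with the replicate number as a block (edgeR adjusted p 0.560), among the 17096 peaks with at least 50 counts in every library (edgeR adjusted p 0.119) or without any 1 library. Its log2 difference was 2.28 without WT 1, 1.09 without WT 2, 1.51 without Polg 1 and 1.21 without Polg 2.

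In the other regions the peaks inside wide NAC domains were tested in their own tables, 1951 in CP, 1524 in COR and 1225 in PVT, and edgeR called none (0 of all peaks tested, 0%, in each table). At an unadjusted p under 0.05 there were 32 in CP (6.69% of all peaks), 58 in COR (9.29%) and 62 in PVT (8.09%). DESeq2 called 173 in CP (33.4% of all peaks), 162 in COR (26.7%) and 86 in PVT (10.7%). At the start of Camk2a, the COR peak had 14.0 and 8.34 CPM per kb in WT and 23.6 and 26.8 in Polg(D181A) libraries (log2 difference 1.19, SE 0.37, edgeR adjusted p 0.535, DESeq2 adjusted p 3.78e-04). The CP peak of 3.68 kb had 24.3 and 2.55 in WT and 47.7 and 45.4 in Polg(D181A) libraries (log2 difference 1.72, SE 1.21, edgeR adjusted p 0.660, DESeq2 adjusted p 0.338). A smaller CP peak of 0.25 kb lay in the domain before the gene. It had 9.70 and 264 in WT and 324 and 70.1 in Polg(D181A) libraries, so that the genotypes overlapped (log2 difference 1.61, SE 2.12, DESeq2 adjusted p 0.605). Neither of the 2 PVT peaks that touch the domain holds the gene's start: one begins 3.62 kb inside the gene and the other 6.14 kb inside it, with 0.158 of its 7.76 kb in the domain. They had 5.39 and 7.17 against 5.82 and 3.50, and 7.64 and 7.48 against 7.51 and 5.58 (log2 differences -0.48 and -0.27, edgeR adjusted p 0.914 for both). Both Polg libraries thus stood above both WT libraries in NAC and COR and in the larger CP peak, which hold the start of the gene, and in neither PVT peak.

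**Figure D5:**
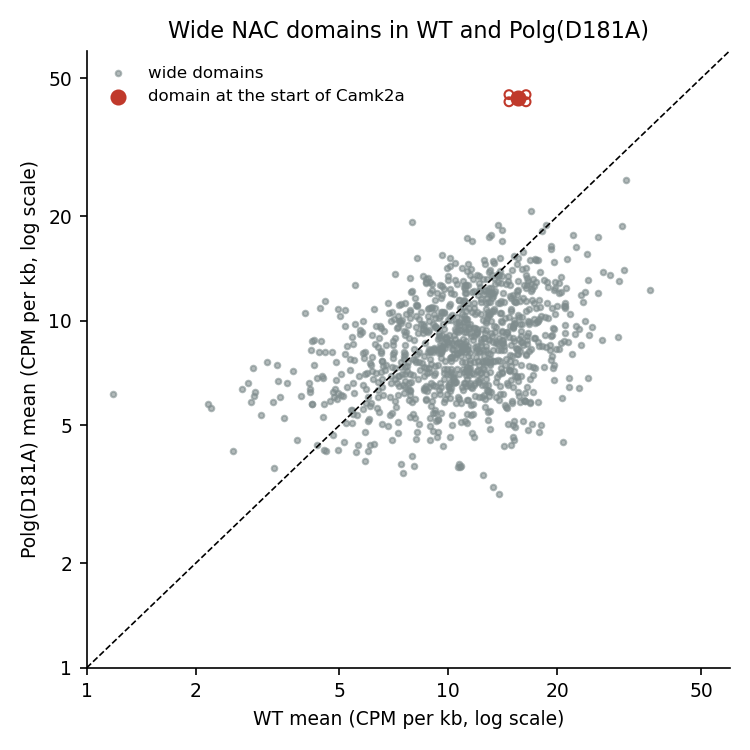
Mean CPM per kb of the 2 Polg(D181A) libraries (vertical, log scale) against that of the 2 WT libraries (horizontal, log scale) for the wide NAC domains, with the domain at the start of Camk2a in red and open circles for the 4 pairings of 1 WT with 1 Polg library. The Camk2a domain lies at 15.6 and 43.8.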

How the data were processed

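Counts of H3K27ac reads per peak were analysed as deposited by the authors, in 4 tables of 4 libraries with 1 merged peak set each. Tools listed in the submitters' processing notes are DESeq2, featureCounts, Subread, HOMER and STAR, and the build is mm10; no role or version stands beside them. The peak threshold and any duplicate removal were not given in the sources used here. Counts ranged from 6415127 to 80516545 per library in NAC, 12048787 to 101443484 in CP, 52566179 to 197650530 in COR and 52759552 to 146450422 in PVT. Reads carry no molecular identifiers, so a floor of 3 counts covers counting error only. Groups were taken from the labels, and replicates from the column names WT_1, WT_2, TG_1 and TG_2.

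Each table was fitted alone with edgeR 4.0.16 (R 4.3.3; TMM scaling, edgeR's filter on low counts, robust quasi-likelihood test, 2-sided, Benjamini-Hochberg adjusted p under 0.05 over all peaks). DESeq2 1.42.0 was an alternative. For CP against COR and CP against PVT, the counts of each peak were shared out over NAC intervals by overlapping length and rounded, with genotype as an additive term, over intervals that peaks of both tables overlap. A single share of counts was compared by an exact permutation test. Overlap means at least 1 base. Genes were placed with a RefSeq gene table of GRCm38.p6, which is mm10, and a gene start could be placed for 16456 autosomal protein-coding genes (not, among others, for Dlx5, Dlx6, Ppp1r1b and Camk2a). Coordinates are those of the peak tables. Items withheld from this text are not reported here. Before use, the NAC genotype fit was run on simulated counts with less spread than the real ones. The biological coefficient of variation of the NAC fit was 1.83. That run therefore does not show how the fits perform on these data.

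The domains, the 21 gene lists and the tests were chosen with earlier results of these data known. Named genes are those of the 20 widest domains, the 3 on each side of the cut, up to 4 genes per list with the widest domain, the called domains (up to 5 per direction over a gene), up to 5 widest domains without a peak in another region, and 5 of highest and lowest level. Genotype fits of CP, COR and PVT, the other domains of list genes and the remaining names were added after values were seen. Replicate numbers do not mark pairs by the labels. Columns of per-sample values not used numbered 20, and the ATAC-seq peaks of PVT were used for positions only.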

Additional observations from a re-analysis of the deposited data

Results flagged for a closer look

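Summed over all peaks that touch the domain at the start of Camk2a, the mean level of the Polg(D181A) libraries over that of the WT libraries was 2.82 in NAC, 2.63 in CP and 2.26 in COR, where both Polg libraries stood above both WT libraries. In PVT it was 0.848, with sums of 7.25 and 7.42 CPM per kb in WT and 7.22 and 5.22 in Polg(D181A) libraries. The CP sum takes in a peak of 0.25 kb where the genotypes overlapped (WT 9.70 and 264, Polg 324 and 70.1 CPM per kb). The PVT value is not from the same place: neither PVT peak holds the gene's start, and 7.76 of the 9.36 kb summed belong to a peak with 0.158 kb in the domain. In each PVT peak taken alone the genotypes overlapped. The sums are listed because both Polg sums of PVT lay below both WT sums, that of Polg 1 only just (7.22 against 7.25 in WT 1). The difference between regions was not tested, and the PVT sum does not bear on the start of the gene.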

How the results depend on the processing

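Each group holds 2 libraries, WT 2 of NAC and of CP are shallow, and the regional contrasts rest on peaks called separately in each table. In NAC, the count of 1 domain called between genotypes was 0 with at least 50 counts in every library, 0 with the replicate block, 0 with DESeq2 and 0 without any 1 library; it stayed at 1 with DESeq2 size factors, total counts and no filter. At an unadjusted p under 0.05 the block gave 13 domains higher and 1 lower in Polg(D181A), where the 15 before were 6 and 9. Over all 105058 peaks it gave 226 in either direction, where 1684 had passed before. The median log2 difference of the domains (0.02) was -0.032 over the 500 widest, -0.24 with total counts only, -0.51 with no filter and from -0.89 to 0.62 with 1 library left out (-0.89 without WT 2, -0.33 without Polg 1, -0.76 without Polg 2). DESeq2 size factors moved the median of all peaks from 1.09 to 1.28. In CP against COR, DESeq2 called 81 and 28 domains, every edgeR setting called 0, the replicate block included, and the median ran from -0.17 (without CP WT 1) to 0.38 with 1 library left out. In CP against PVT, the 24 domains higher in CP stood beside 27 of all intervals. They were 37 with DESeq2 size factors (all intervals 43), 164 with DESeq2 (657) and 2 with the replicate block (2). With the covered length as an offset they were 0 (0), and with 1 library left out 1 to 155 (1 to 361). The 1 domain higher in PVT (all intervals 5) was 0 among the 500 widest and 2 among the 2000 widest. It was 3 with DESeq2 size factors (all intervals 8), 32 with DESeq2 (1333) and 0 with the replicate block (0). With the offset it was 0 (0), and with 1 library left out 0 to 31 (0 to 162). The median ran from -0.0845 (without CP WT 1) to 0.60. Of the 25 calls, all were kept with DESeq2 size factors, no filter and DESeq2. With the offset, domains near Plk2 (-0.14), in Akap6 (-0.12), near Ddx18 (-0.23) and near Spry2 (rank 803, -0.0015) turned in sign. The share of domains touching CP, COR and PVT peaks was 45.9%, 46.4% and 35.8% with at least 50% of the length covered and 6.4%, 13.2% and 16.5% with at least 90%. It was 98.4% in CP for the 500 widest, and 93.8%, 84.6% and 75.05% for the 2000 widest. The difference in the share of counts (2.24 points, WT minus Polg) was 1.51 for the 500 widest, 3.42 for the 2000 widest and 1.83 to 2.65 with 1 library left out. Genotype calls inside the domains in other tables, 0 in edgeR, were 173 in CP, 162 in COR and 86 in PVT with DESeq2, and in CP 0 to 412 with 1 library left out (412 without WT 1). Without CP WT 1 the whole CP table shifted, with WT 2, which had no count in 80.8% of CP peaks, as the only WT library. The median log2 difference (Polg minus WT) was then 10.5 over all tested CP peaks and 4.25 over those in wide domains. With all libraries these medians were 0.66 and 0.32. The 412 is therefore not read as a feature of the wide domains. Beyond the settings' own construction (fewer samples or peaks), the cause of the changes between settings was not tested. Without PVT Polg 1, 13 of the 25 calls were kept, and without CP WT 1 only 1.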

Other observations

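Wide domains were spread unevenly over the chromosomes. Chromosome 12 held 103 of the 1000, where it held 5.29% of all autosomal NAC peaks, and chromosome 7 held 10, where it held 3.60%. Among the 1000 widest peaks of the other tables, chromosome 12 held 86 in CP, 70 in COR and 58 in PVT. The share of all counts on chromosome 12 ran from 5.72% to 6.25% in the NAC libraries.

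Open chromatin was measured by ATAC-seq in PVT alone. An ATAC peak of PVT lay in 669 wide domains (66.9%, against 17.1% of all autosomal NAC peaks). Per length the wide domains held 1.26 such peaks per 10 kb and all NAC peaks 2.16. Wide domains with at least 50% of their length in PVT H3K27ac peaks held 1.66 per 10 kb and the others 1.04.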
